A study of Mus musculus with 2 samples.

Results

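The cells described here are helper T cells of the pancreatic islets that carried messenger RNA of the cytokine interleukin 21 (Il21) or of the chemokine receptor Cxcr5. They were chosen barcode by barcode from raw UMI counts (unique molecular identifiers, 1 per captured RNA molecule). A barcode entered with at least 500 genes, at most 10% mitochondrial UMIs, at least 1 UMI of Cd4, at least 1 of Cd3d, Cd3e and Cd3g summed, no Cd8a, Cd8b1 or Foxp3 UMI, at most 1 UMI of Cd79a, C1qa and Lyz2 summed and at most 1 of Mki67 and Top2a summed. Among the 2489 barcodes that passed this CD4 gate, the 565 with at least 1 UMI of Il21 or Cxcr5 are the members, and the other 1924 are the comparator. They are 565 of the 24413 barcodes of the series and of the 22466 that passed the cell filter. The study compared islet leukocytes of NOD mice, in which diabetes arises by autoimmunity, with those of NOD mice carrying a deletion of Cxcl16, the ligand of the chemokine receptor Cxcr6. Live CD45-positive, CD31-negative cells were sorted from hand-picked islets of females aged 12 weeks, dispersed without enzymes after collagenase digestion of the pancreas, and sequenced with the 10x 3' v3.1 chemistry, per the labels' protocols. Each genotype has 1 library: the WT NOD library holds 308 members and 975 other CD4 cells, and the library labelled NOD.Cxcl16-/- holds 257 and 949. The number of animals behind a library is not given in the labels, and NOD, sex, age, tissue and sort are shared by both.

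As background, IL-21 is a cytokine made mainly by activated CD4 T cells that acts on B cells and CD8 T cells through a receptor of Il21r and the common gamma chain. Follicular helper T cells make IL-21, carry CXCR5, ICOS and PD-1, depend on the repressor Bcl6, and give help to B cells in germinal centres; peripheral helper cells share the cytokine and help B cells in inflamed tissue without CXCR5. In the NOD strain, IL-21 and its receptor are needed for diabetes. The transcription factor Maf drives transcription of Il21, and signalling through the T-cell receptor does so through NFAT proteins.

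The Il21 promoter is shown because the gene admitted most of the members, and that of Tnfsf8, the ligand of CD30, because it was higher in members both against all other CD4 cells and within antigen-experienced cells. Both are the 250 bases before RefSeq's transcript start in GRCm38.p6, on the minus strand, 5' to 3', with capitals marking matches on either strand to GGAAA, the core bound by NFAT proteins, and to TGCTGAC, a Maf half-site.
Il21, chr3:37232637-37232886: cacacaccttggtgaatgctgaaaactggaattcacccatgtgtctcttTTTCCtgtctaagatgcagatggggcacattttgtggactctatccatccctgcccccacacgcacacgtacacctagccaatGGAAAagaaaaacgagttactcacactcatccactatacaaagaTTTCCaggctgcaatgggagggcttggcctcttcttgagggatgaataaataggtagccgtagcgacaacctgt
Tnfsf8, chr4:63861285-63861534: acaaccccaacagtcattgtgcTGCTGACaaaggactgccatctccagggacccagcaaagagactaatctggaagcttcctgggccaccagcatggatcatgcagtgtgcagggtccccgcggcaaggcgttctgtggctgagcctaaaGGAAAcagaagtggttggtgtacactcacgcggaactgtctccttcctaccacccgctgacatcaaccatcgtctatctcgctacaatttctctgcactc
The Il21 stretch holds 3 NFAT cores, whose first bases lie at -201, -118 and -74 from the start, and no Maf half-site. The Tnfsf8 stretch holds 1 NFAT core at -100 and 1 Maf half-site at -228. Neither holds TGANTCA, the AP-1 core. Among 32851 RefSeq mouse promoter windows of this length, 55.6% hold the NFAT core, 3.81% the Maf half-site and 6.75% the AP-1 core. A match in letters does not show binding. By the GENCODE M21 annotation, Il21 lies on chromosome 3, 37222759 to 37232636, and Tnfsf8 on chromosome 4, 63831308 to 63861347 (GRCm38). Cxcr5 lies on chromosome 9, 44511787 to 44561877, Icos on chromosome 1, 60977927 to 61000320, Pdcd1 on chromosome 1, 94038305 to 94052553 and Maf on chromosome 8, 115682942 to 115707794.

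The 2 libraries hold 13859 and 10554 barcodes with 93553185 and 98681133 UMIs; 45 barcode sequences occur in both, none of them a member in both. Cxcl16, the gene named in the strain label, had 104 CPM (a gene's UMIs scaled to a common total of UMIs) over the filtered barcodes of the WT NOD library and 102 CPM in the library labelled NOD.Cxcl16-/-. In members it had 47.5 CPM (38.6 to 57.9) and 19.8 CPM (14.0 to 27.2), and in the other CD4 cells 32.5 and 10.8 CPM, with less in the second library in both classes. Without class II-rich barcodes, described below, the members' log2 ratio between libraries did not differ from 0 beyond counting error, at -0.24 (-2.08 to 1.56). A 3' tag outside the deleted part would not check the deletion, and every difference between the libraries is therefore given by label. Members were deeper than the other CD4 cells, with a median of 5133 against 3966 UMIs in the WT NOD library and 5829 against 4333 UMIs in the library labelled NOD.Cxcl16-/-. Some gated barcodes carried the class II genes Cd74, H2-Aa, H2-Ab1 and H2-Eb1 of antigen-presenting cells: 28 of 308 and 15 of 257 members, and 61 of 975 and 28 of 949 other CD4 cells, had at least 20 UMIs of the 4 genes. These class II-rich barcodes were deep, with median UMIs of 15661.5 and 17367 in members, and held 20.5% and 13.6% of all members' UMIs against 11.8% and 6.72% in the other cells. They also kept Cd3 UMIs, with a median of 23 and 25. No doublet caller was run, so results are given with and without them where they differ.

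Il21, far more than Cxcr5, defined the members. In the WT NOD library 235 members had Il21 alone, 53 had Cxcr5 alone and 20 had both. In the library labelled NOD.Cxcl16-/- the numbers were 166, 65 and 26. The values that chose the cells were low: of the members, 162 of 308 and 136 of 257 entered with a single UMI of the 2 genes, the highest Il21 count in a cell was 17 and 18, and 60 of 73 and 75 of 91 Cxcr5-positive members had 1 Cxcr5 UMI. The gate held 255 of 868 Il21-positive barcodes (29.4%, 95% exact interval 26.4 to 32.5) in the WT NOD library and 192 of 591 (32.5%, 28.7 to 36.4) in the other. Of the Il21-positive barcodes outside it, 150 and 81 failed only for want of a Cd4 UMI and 49 and 60 only for cycling genes, and the others failed another step or several. Of 1303 and 1605 Cxcr5-positive barcodes, 419 and 595 of which lay in the B-cell gate, it held 5.60% and 5.67%.

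With every cell thinned to 2000 UMIs (119 and 41 shallower gated cells left out), Il21 was detected in 11.9% (10.1 to 13.9) of gated WT NOD cells and 7.47% (6.02 to 9.13) of gated cells in the library labelled NOD.Cxcl16-/-. The unthinned shares were 19.9% and 15.9%. In CD8 cells the thinned share was 0.944% and 0.699%, in Foxp3-positive CD4 cells 1.80% and 0.532% and in B cells 0% and 0.0559%, where 0 of 1447 cells allows a share of up to 0.207% by the limit of 3 counts and 0.255% by the exact interval. Median depths before thinning were 4159 and 4534 UMIs for gated CD4 cells, 4232.5 and 5249 for CD8 cells and 4503 and 4599 for B cells. Il21 was thus concentrated in the CD4 gate far above the level in B cells, which make no IL-21. Cxcr5 was not: its thinned share was 2.15% (1.39 to 3.15) and 2.66% (1.81 to 3.76) in gated CD4 cells, 2.33% and 1.79% in CD8 cells, and 13.1% and 14.9% in B cells, the main carriers of CXCR5. The exact intervals of gated CD4 and CD8 cells overlapped in both libraries, so the thinned share of gated CD4 cells was not detectably above that of CD8 cells. Thinning left out 592 and 84 CD8 cells. Over all cells without thinning, Cxcr5 was higher in gated CD4 cells, at 14.7 and 16.8 CPM against 9.96 and 8.51 CPM in CD8 cells. Whether a given member with a Cxcr5 UMI expresses the gene cannot be told from these values. Cxcr5 was found more often beside Il21 than without it, in 3.62% against 1.95% of thinned Il21-positive and Il21-negative CD4 cells of the WT NOD library and 9.20% against 2.13% in the library labelled NOD.Cxcl16-/-; the first numbers rest on 5 and 8 cells.

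**Figure D1:**
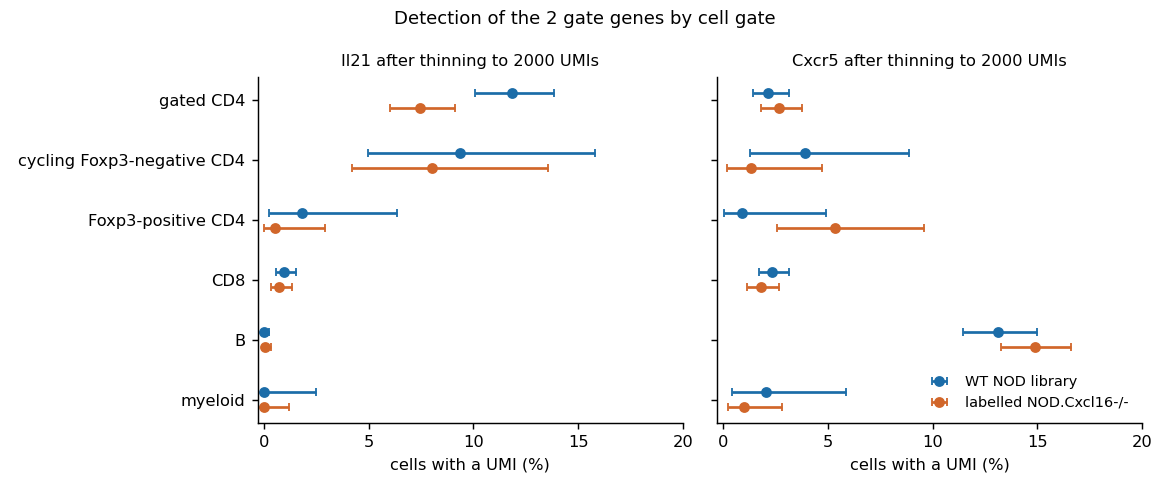
Share of cells with a UMI of Il21 (left) or Cxcr5 (right) after thinning each cell to 2000 UMIs, by cell gate and library; points are shares in percent and bars 95% exact binomial intervals, which cover counting error only. Il21 is high in the 2 Foxp3-negative CD4 gates and near 0 in B cells, and Cxcr5 is highest in B cells, with overlapping intervals in gated CD4 and CD8 cells.

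Members were 24.0% (21.7 to 26.4, exact binomial interval) of gated WT NOD cells and 21.3% (19.0 to 23.7) of gated cells in the library labelled NOD.Cxcl16-/-; the shares differed by -2.70 percentage points (-5.98 to 0.59). At 2000 UMIs a cell the shares were 13.6% (11.7 to 15.7) and 9.44% (7.82 to 11.3), with no overlap of these intervals. Of all filtered barcodes members were 2.51% and 2.52%. The 2 gate genes went different ways: Il21 had 85.6 CPM over all gated CD4 cells of the WT NOD library and 68.5 CPM in the other, and Cxcr5 14.7 and 16.8 CPM. With 1 library per genotype these differences have no replicate check, and intervals cover counting error only.

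To ask what members share beyond the 2 genes that chose them, UMIs were summed per library and class, and members were set against the other CD4 cells within each library by edgeR's quasi-likelihood test. The test has 1 residual degree of freedom and borrows spread across genes, so its p-values measure how far the contrast differs between these 2 libraries, not between animals. Of 10389 genes tested, 737 (7.09%) were higher and 682 (6.56%) lower in members at an adjusted p below 0.05. DESeq2 called 154 (2.42%) and 151 (2.38%) of 6356 genes, and edgeR called each of those 305 as well. With the gate on cells thinned to 2000 UMIs 177 (2.16%) and 174 (2.12%) of 8205 genes were called. The other 3 genes of the label were checked first. Icos, the inducible costimulator, was at 545 against 449 CPM among WT NOD cells and 679 against 574 CPM in the library labelled NOD.Cxcl16-/- (log2 fold change 0.22 ± 0.05 (SE), adjusted p = 0.00274). Pdcd1, which encodes PD-1, was at 99.8 against 68.3 CPM among WT NOD cells and 122 against 88.0 CPM in the library labelled NOD.Cxcl16-/- (log2 fold change 0.47 ± 0.10 (SE), adjusted p = 0.002). Maf was at 547 against 359 CPM among WT NOD cells and 436 against 276 CPM in the library labelled NOD.Cxcl16-/- (log2 fold change 0.59 ± 0.06 (SE), adjusted p = 1.90e-08). All 3 were higher in members of both libraries. All 3 were detected together in 23.4% and 28.4% of members and in 10.5% and 12.0% of the other cells. DESeq2 called Maf alone, and the gate on thinned cells Icos and Maf. When both sides were limited to antigen-experienced cells, here those with a Cd44 UMI and no UMI of markers of naive cells (96 and 77 members, 214 and 225 others), 162 (2.21%) and 162 (2.21%) of 7327 genes were called, and the log2 fold changes were -0.15 (adjusted p = 0.59) for Icos, 0.46 (adjusted p = 0.0827) for Pdcd1 and 0.27 (adjusted p = 0.167) for Maf. Markers of other cells moved with this narrower contrast. Of 6 B-cell list genes 4 were higher, all of class II (median 1.98), of 5 myeloid genes 4 (median 1.20), and Ins1 and Ins2 were at 0.99 (adjusted p = 1.22e-04) and 0.72 (adjusted p = 5.80e-04). With the class II-rich barcodes left out as well (91 and 72 members, 207 and 222 others), 114 (1.65%) genes were higher and 138 (1.99%) lower of 6918. No B-cell or myeloid gene was then called, of 6 and 2 tested. For the 4 class II genes this was largely set in advance, since they define the barcodes left out. Ins1 and Ins2 were still higher at 1.11 (adjusted p = 4.22e-04) and 0.86 (adjusted p = 0.00168). The part of Ins1 and Ins2 in the other results was not tested. Among the label genes Pdcd1 was then called at 0.58 (adjusted p = 0.0252) and Maf at 0.40 (adjusted p = 0.00636), and Icos was not, at -0.06 (adjusted p = 0.841).

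Nearly as many genes of the follicular helper program went uncalled as were higher in members. Of 28 tested, 13 were higher, 3 lower and 12 not called, with a median log2 fold change of 0.42 against 0.00 over all genes; DESeq2 called 9 and 0 of 23, and the comparison within antigen-experienced cells 7 and 0 of 24 (median 0.10), or 9 and 1 of 23 without class II-rich barcodes. For Tnfsf8, which engages CD30, members had 669 CPM (634 to 705) and other cells 270.0 CPM (255 to 285) among WT NOD cells, against 665 CPM (629 to 703) and 341 CPM (325 to 358) for the library labelled NOD.Cxcl16-/-, with 95% exact Poisson intervals in brackets. Members were above the other cells in both libraries with no overlap of these intervals (log2 fold change 1.09 ± 0.06 (SE), adjusted p = 2.27e-12), and the change was 0.67 (adjusted p = 3.44e-06) within the antigen-experienced cells. Tox2, a transcription factor of follicular helper cells, was at 108 against 39.7 and 106 against 53.7 CPM in the 2 libraries in turn (log2 fold change 1.16 ± 0.12 (SE), adjusted p = 1.27e-07). Its relative Tox was at 701 against 405 and 774 against 511 CPM (log2 fold change 0.65 ± 0.05 (SE), adjusted p = 1.01e-09). Cd200, a ligand of an inhibitory receptor, was at 534 against 242 and 446 against 206 CPM (log2 fold change 1.09 ± 0.06 (SE), adjusted p = 6.95e-13), and Btla, an inhibitory receptor of follicular helper cells, at 118 against 48.4 and 129.9 against 60.9 CPM (log2 fold change 1.15 ± 0.11 (SE), adjusted p = 1.90e-08). Each of Tox, Tox2, Cd200 and Btla was also called by DESeq2, within the antigen-experienced cells with and without class II-rich barcodes and with the gate on thinned UMIs.

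Sh2d1a, which encodes the adaptor SAP that sustains contact with B cells, was also higher at 345 against 240.1 and 372 against 254 CPM (log2 0.50, adjusted p = 1.62e-06). Bcl6, the repressor on which follicular helper cells depend, was only slightly higher, at 63.5 against 45.4 and 72.5 against 55.7 CPM (log2 fold change 0.39 ± 0.13 (SE), adjusted p = 0.0405), and was called neither by DESeq2, nor with the gate on thinned cells, nor within the antigen-experienced cells (0.36, adjusted p = 0.543). It kept its call without class II-rich barcodes and for Cxcr5-positive members alone, but not for Il21-positive members alone. The B-cell chemokine Cxcl13 had a log2 fold change of 1.51, yet its UMIs came from 10 and 9 member cells, with 29 of 49 and 58 of 150 UMIs in 1 cell. Ascl2, an inducer of Cxcr5, was at 3.88 against 2.40 and 7.30 against 2.08 CPM (adjusted p = 0.0814). Cd40lg, the membrane ligand through which helper cells license B cells, did not differ detectably, at 123 against 138 and 128 against 125 CPM (adjusted p = 0.532). The 3 lower genes were Id3, Tcf7 and Gpr183; Tcf7, a factor of follicular helper and naive cells, was at 212 against 265 and 248 against 280.3 CPM (log2 -0.28, adjusted p = 0.00533) and was not called without class II-rich barcodes (adjusted p = 0.0987).

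**Figure D2:**
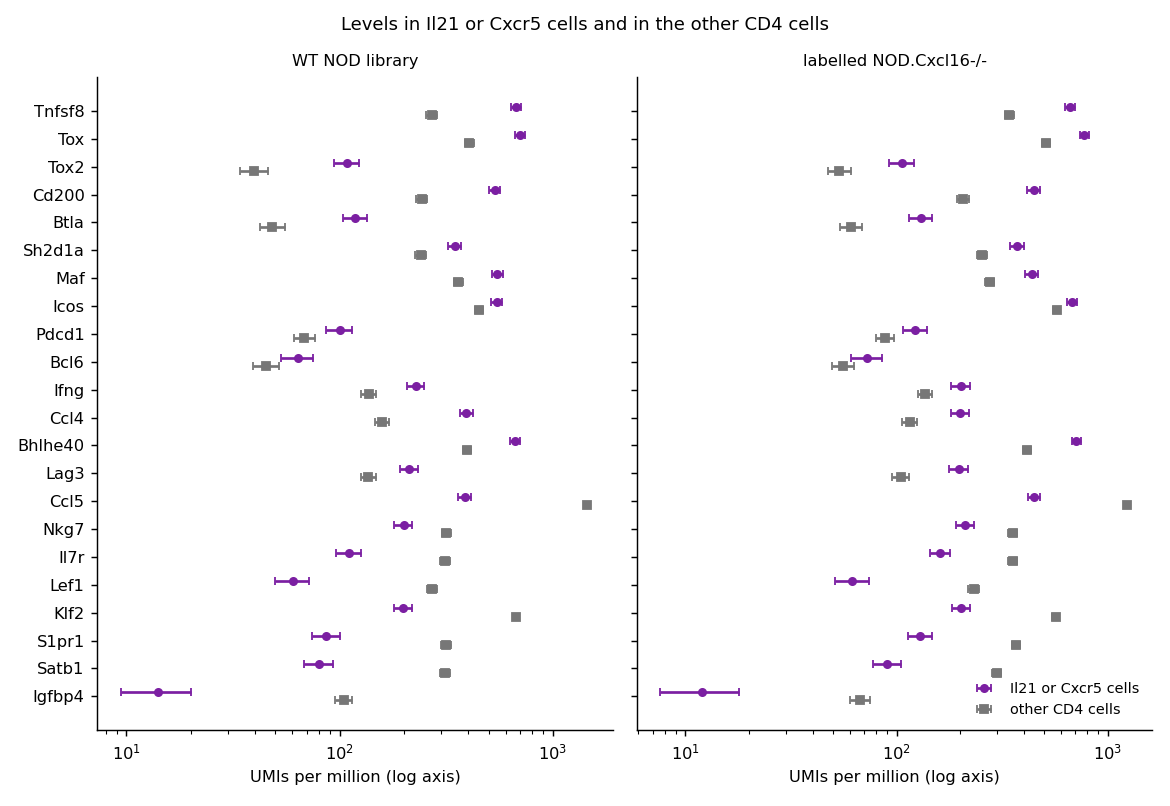
CPM (log axis) of named genes in members (circles) and the other CD4 cells (squares) of each library, with 95% exact Poisson intervals of the summed UMIs. Helper genes from Tnfsf8 to Lag3 lie higher in members of both libraries, and Ccl5, Nkg7 and the genes of naive cells lie lower.

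Inhibitory receptors that passed the test were higher, while costimulatory genes went both ways. Of 15 inhibitory receptors tested 8 were higher and none lower (median 0.45): Pdcd1, Ctla4, Lag3, Tigit, Havcr2, Btla, Cd200 and Nt5e. Ctla4, a brake on CD28 signalling, was at 1086 against 774 and 1234 against 880.5 CPM (log2 fold change 0.45 ± 0.04 (SE), adjusted p = 9.28e-09), and Lag3, an inhibitory receptor for class II, at 211 against 136 and 197 against 105 CPM (log2 fold change 0.73 ± 0.08 (SE), adjusted p = 5.95e-07). Havcr2 lost its call without class II-rich barcodes (log2 0.21, adjusted p = 0.57). Lair1 was then lower, and the counts were 7 higher and 1 lower of 14. DESeq2 called 5 of 11 higher and the gate on thinned cells 5 of 12, with none lower in either. Of 16 costimulatory genes 7 were higher and 4 lower (median 0.08), among them Tnfrsf4 (OX40), at 764 against 418 and 754 against 449.6 CPM (log2 fold change 0.77 ± 0.05 (SE), adjusted p = 2.35e-11), and the lower Cd27 and Cd226. Within antigen-experienced cells 2 of 12 inhibitory genes were higher, Btla and Cd200, and Lag3 stood at 0.15 (adjusted p = 0.739) and Tnfrsf4 at 0.25 (adjusted p = 0.215); without class II-rich barcodes Pdcd1 and Tnfrsf4 (0.36, adjusted p = 0.0141) were called there too. Genes linked to anergy, the unresponsive state of chronically stimulated T cells, were higher for 11 of 17 and lower for 3 (median 0.65). The higher ones include Nrn1 (neuritin), at 119 against 78.9 and 193 against 111 CPM (log2 fold change 0.66 ± 0.09 (SE), adjusted p = 7.18e-06), Izumo1r (folate receptor 4), at 241 against 185 and 220.2 against 154 CPM (log2 fold change 0.41 ± 0.07 (SE), adjusted p = 2.97e-04), and Hif1a, at 920.2 against 551 and 1046 against 639 CPM (log2 fold change 0.69 ± 0.04 (SE), adjusted p = 2.03e-11). The lower ones were Cblb, Dgka and Pde3b, of which Cblb and Dgka are known brakes on T-cell receptor signalling. Within antigen-experienced cells 3 of 15 were higher (Tnfsf8, Tox and Hif1a) and 2 lower (median 0.16), and Nrn1 and Izumo1r were not called, at 0.15 (adjusted p = 0.836) and -0.03 (adjusted p = 0.971). Without class II-rich barcodes 4 of 15 were higher there, with Tnfrsf4 added, and 1 lower. This list shares Tnfsf8, Izumo1r, Tox, Lag3, Nt5e, Tnfrsf4, Egr2 and Egr3 with other groups described here, so the counts are not independent.

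Cytokine genes divided members from the other CD4 cells in opposite directions. Of 17 tested, 7 were higher (Il2, Ifng, Tnf, Lta, Tnfsf11, Ccl3 and Ccl4) and 2 lower (Ccl5 and Areg), and without class II-rich barcodes 10 and 2 of 16. DESeq2 called 5 higher and 1 lower of 14, and the gate on thinned cells 6 and 1 of 15. Ifng was at 227 against 137 CPM among WT NOD cells and 201 against 136 CPM in the library labelled NOD.Cxcl16-/- (log2 fold change 0.61 ± 0.08 (SE), adjusted p = 2.80e-06), and it was found in 48.4% and 42.0% of members against 25.9% and 26.4% of the other cells. Within antigen-experienced cells Ifng was not called, at 0.29 (adjusted p = 0.32). Tnfsf11, which encodes RANKL, was at 237 against 112 and 307 against 143 CPM (log2 fold change 1.05 ± 0.07 (SE), adjusted p = 8.62e-11), and the chemokine Ccl4 at 393 against 158 and 200.3 against 115 CPM (log2 fold change 1.05 ± 0.09 (SE), adjusted p = 2.89e-09); both were also higher within antigen-experienced cells. Ccl4 came from 62 and 34 member cells, with 248 of 811 and 74 of 384 UMIs in 1 cell. Il2 came from 18 member cells in each library, with 37 of 76 and 16 of 49 UMIs in 1 cell. It was not called by DESeq2, with the gate on thinned cells or within antigen-experienced cells. Il10, an inhibitory cytokine, was at 56.7 against 41.4 and 44.9 against 33.7 CPM and missed the threshold (adjusted p = 0.0764), while without class II-rich barcodes it passed (log2 0.46, adjusted p = 0.02). The chemokine Ccl5 was lower, at 385 against 1447 CPM among WT NOD cells and 449 against 1229 CPM in the library labelled NOD.Cxcl16-/- (log2 fold change -1.72 ± 0.06 (SE), adjusted p = 1.83e-15). The share of cells with a Ccl5 UMI differed much less, 42.2% and 29.2% of members against 47.8% and 32.5% of other cells.

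Genes of the T helper 1 program thus did not move as 1 group: 7 of 24 were higher, 7 lower and 10 not called (median -0.05). Beside Ifng, Ccl3, Ccl4, Tnf and Il2, Stat4 and Bhlhe40 were higher, the latter, a regulator of cytokine production, at 661 against 396 and 711 against 413 CPM (log2 fold change 0.72 ± 0.05 (SE), adjusted p = 7.55e-11). The lower ones were Cxcr6, Ccl5, Il18r1, Hopx, and the cytotoxic granule genes Nkg7, Gzmb and Gzmk. Cxcr6, the receptor for the chemokine that the strain label names, was at 164 against 203 and 171 against 212 CPM (log2 fold change -0.35 ± 0.08 (SE), adjusted p = 0.00176). Its call was absent with DESeq2 and with the gate on thinned cells. Tbx21, the factor T-bet, was at 46.0 against 30.1 and 45.4 against 35.4 CPM (adjusted p = 0.0597), with a call without class II-rich barcodes (log2 0.53, adjusted p = 0.0148) and for Il21-positive members alone (0.63, adjusted p = 0.0211), but not with DESeq2, thinned cells or antigen-experienced cells. Of 14 genes of CD8 and NK cells 11 could be tested, of which 5 were lower and none higher; over the 12 measured outside the gate their summed level was 440.0 and 466 CPM in members and 611 and 670.2 CPM in other cells, with only Gzma at 0, in members of the library labelled NOD.Cxcl16-/-. The part of cytotoxic cells in the lower Ccl5 and Nkg7 was not tested.

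Genes of naive and recirculating T cells were lower together. Of 14 tested, 12 were lower in members and none higher, with a median log2 fold change of -1.73; DESeq2 called 11 of 13 lower and the gate on thinned cells 11 of 13. Lef1, a factor of naive cells, was at 60.1 against 271 CPM among WT NOD cells and 61.6 against 232 CPM in the library labelled NOD.Cxcl16-/- (log2 fold change -2.09 ± 0.09 (SE), adjusted p = 3.43e-14), and Klf2, which drives exit receptors, at 198 against 671 and 202 against 567 CPM (log2 fold change -1.67 ± 0.07 (SE), adjusted p = 2.83e-15). S1pr1, the exit receptor for sphingosine 1-phosphate, was at 86.3 against 315 and 129 against 367 CPM (log2 fold change -1.71 ± 0.08 (SE), adjusted p = 1.20e-13), and Il7r, the survival receptor for IL-7, at 110.0 against 311 and 161 against 355 CPM (log2 fold change -1.35 ± 0.08 (SE), adjusted p = 4.63e-12). Ccr7 and Actn1 were not called; Ccr7, a lymph-node homing receptor, was at 168 against 231 and 299 against 284 CPM (adjusted p = 0.127), and passed without class II-rich barcodes (log2 -0.23, adjusted p = 0.0269). Restricting both sides to antigen-experienced cells left 7 of 9 lower (7 of 8 without class II-rich barcodes), with Lef1 at -1.24 (adjusted p = 2.85e-05), Klf2 at -1.26 (adjusted p = 5.55e-17) and S1pr1 at -1.66 (adjusted p = 6.90e-21). Of 21 residency and migration genes 2 were higher and 8 lower, and Cd69, a marker of recent activation and retention, was among the lower at 272 against 365 and 254 against 324 CPM (log2 -0.43, adjusted p = 1.90e-05).

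Genes that respond to the T-cell receptor split: 8 of 22 were higher and 5 lower (median 0.07). The higher ones include Egr2 and Egr3, induced by NFAT, at 13.1 against 6.32 and 14.6 against 6.03 CPM and 14.5 against 5.45 and 16.2 against 5.20 CPM (adjusted p = 0.0113 and 9.41e-04), Nfatc1 at 196 against 129 and 202 against 148 CPM (log2 0.48, adjusted p = 8.49e-05) and Rel at 461 against 308 and 467 against 330.2 CPM (log2 0.50, adjusted p = 3.68e-07). DESeq2 called 4 of 19 higher, among them Nfatc1 and Rel, and gave Egr2 and Egr3 no adjusted p, while the gate on thinned cells called 3 of 22, Egr2, Nfatc1 and Nfkbia. Within antigen-experienced cells 5 of 20 were higher and 3 lower, Egr2 and Nfatc1 were not called, at 1.98 (adjusted p = 0.0711) and 0.29 (adjusted p = 0.314), and Egr3 did not pass the filter on low counts. Without class II-rich barcodes Nfkbia alone was higher there. Dusp2 and Dusp5, phosphatases that end MAP kinase signals, were lower. The machinery through which cells sense IL-21 barely separated the classes: of 18 genes 1 was higher and 3 lower, the latter Il2rg, Jak1 and Stat5b, with a median of -0.03, and Il21r itself was at 181 against 189 and 207 against 197 CPM (adjusted p = 0.854). Of 18 interferon-induced genes 4 were higher and 4 lower, and of 9 genes of type 2 and type 17 helper cells 3 were higher and 2 lower, led by Ahr, the aryl hydrocarbon receptor, at 83.8 against 50.2 and 149 against 62.2 CPM (log2 fold change 0.99 ± 0.12 (SE), adjusted p = 1.14e-06). Of 11 regulatory T-cell genes outside the gate 1 was higher and 2 lower, and of 10 cell cycle genes 1 (Mcm6) and 1 (Hmgb2). Without class II-rich barcodes 4 of 9 regulatory genes were higher (Ikzf2, Capg, Itgb8 and Il10) and 1 lower, and 4 of 10 cell cycle genes were higher (Mcm5, Mcm6, Stmn1 and Tyms) and none lower. The interferon-induced counts were then 2 higher and 5 lower. Of 5 genes of gamma-delta and innate lymphoid cells 2 were lower (Il1rl1 and Areg), and of 6 endocrine genes 1 (Pyy), while without class II-rich barcodes Ins1 and Ins2 were higher and Sst lower of 5.

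**Figure D3:**
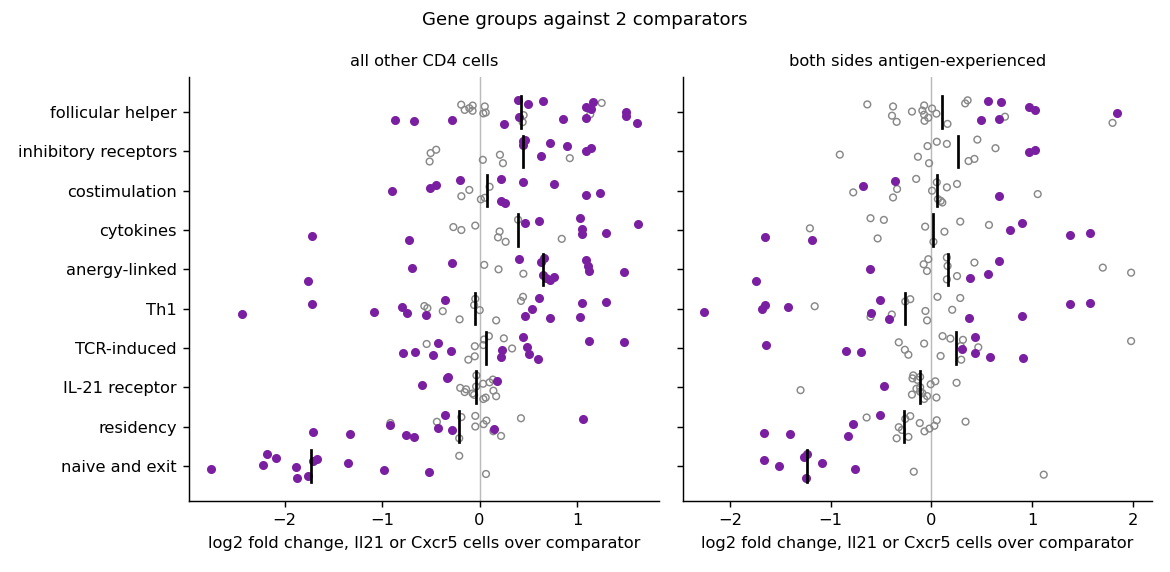
Log2 fold change of each tested gene (points, spread vertically within a group for legibility) of 10 gene groups, members over all other CD4 cells (left) or with both sides limited to antigen-experienced cells (right). Filled points had an adjusted p below 0.05 by edgeR and black bars are group medians; the median of the naive group lies left of 0 in both panels, at -1.73 and -1.24, while the medians of the inhibitory receptors, 0.45 and 0.26, and of the follicular helper group, 0.42 and 0.10, lie nearer to 0 on the right.

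Genes of antigen-presenting cells moved with the contrast through the class II-rich barcodes. Cd74 was at 2523 against 1395 and 1550.1 against 951 CPM (log2 0.74, adjusted p = 2.14e-13), and without class II-rich barcodes its log2 fold change was -0.29 (adjusted p = 0.0617); H2-Aa went from 0.84 to -0.28 and Cst3 from 0.65 to 0.02. Over the 17 B-cell list genes outside the gate, a list that includes the class II genes, the summed level was 6019.7 and 3991 CPM in members and 3662 and 2616 CPM in other cells, and 566 and 584 CPM against 787 and 678 CPM without those barcodes. Ms4a1, which encodes CD20, was at 0 in members of the library labelled NOD.Cxcl16-/-. Over 12 myeloid genes the sums were 1732 and 1301 CPM against 1090.1 and 895 CPM, and 509 and 472 CPM against 459 and 453 CPM without them. Leaving the class II-rich barcodes out gave 729 (7.39%) higher and 768 (7.79%) lower of 9860 genes, and 1118 genes were called both ways, which is 78.8% of the first set and 74.7% of the second. These 5 helper genes kept their calls: Tnfsf8 had a log2 fold change of 1.19, Maf 0.70, Pdcd1 0.63, Icos 0.29 and Ifng 0.75.

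The 12 largest falls over all genes by the naming rule include Igfbp4, Dapl1 and Lef1 of the naive list. Igfbp4 fell by 2.76 on the log2 scale (14.1 against 104 and 12.0 against 67.4 CPM), Trat1, a T-cell receptor adaptor, by 2.46, and Cd55, a complement regulator, by 2.28. Scml4, Dapl1, Rasgrp2, Lef1, Pdlim4, Pdlim1, Ifi208 and Kif23 were also among the 12, between -2.28 and -1.91. On the higher side, many of the 12 rest on few cells. The first, 1810009J06Rik (chromosome 6, 40964754 to 40968435, plus strand), had a log2 fold change of 5.57, but 95.1% of its UMIs in WT NOD members and 100% in the other library came from 1 cell. Spp1, which encodes the secreted protein osteopontin, was at 103 against 21.8 and 270.3 against 88.2 CPM (log2 fold change 1.77 ± 0.11 (SE), adjusted p = 1.78e-11), from 17 and 42 member cells, with 42.5% of the WT NOD UMIs in 1 cell; the gate on thinned cells did not call it (adjusted p = 0.756). Lpar3, a lysophosphatidic acid receptor, was at 32.0 against 7.20 and 19.3 against 6.86 CPM (log2 fold change 1.81 ± 0.25 (SE), adjusted p = 6.60e-06) and spread over 44 and 25 member cells, with DESeq2 and thinned calls as well, though within antigen-experienced cells the call was lost (log2 1.60, adjusted p = 0.0942). Lta, which encodes lymphotoxin alpha, was at 31.5 against 8.94 and 46.4 against 15.8 CPM (log2 fold change 1.62 ± 0.19 (SE), adjusted p = 7.84e-07). It was called by DESeq2, but not within antigen-experienced cells (log2 0.57, adjusted p = 0.735), for Cxcr5-positive members alone (log2 0.68, adjusted p = 0.342) or with the gate on thinned cells (log2 0.97, adjusted p = 0.298). Dgki, Gucy2g, Gm31814, Ctnnd2 and Cdk14 had log2 values between 1.54 and 1.85, of which Ctnnd2 and Cdk14 had too few UMIs to be tested without class II-rich barcodes. Epcam went from 1.65 to 0.08 without class II-rich barcodes (adjusted p = 0.944), and Cxcl2 turned from 1.72 to -0.94.

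Members differed among themselves by the gene that admitted them. Cells with Il21 alone (235 and 166) were set against cells with Cxcr5 alone (53 and 65) by the same test, with cells of both left out. Of 7500 genes 79 (1.05%) were higher and 115 (1.53%) lower in Il21-only cells; without class II-rich barcodes the numbers were 43 (0.626%) and 21 (0.306%) of 6869, and DESeq2 called 14 (0.448%) and 16 (0.512%) of 3128. The class II-rich barcodes were 18 of 235 and 9 of 166 Il21-only cells and 9 of 53 and 6 of 65 Cxcr5-only cells, and Cd74 was at 2147 against 4485 and 1051 against 3194 CPM (log2 -1.32, adjusted p = 9.77e-07). Il21-only cells were higher in effector genes. Ifng was at 275 against 106 CPM among WT NOD cells and 260.5 against 82.7 CPM in the library labelled NOD.Cxcl16-/- (log2 fold change 1.52 ± 0.17 (SE), adjusted p = 2.73e-05). Ccl5 was at 459.9 against 159.7 and 620.0 against 195 CPM (log2 fold change 1.61 ± 0.13 (SE), adjusted p = 9.77e-07), Nkg7 at 240.0 against 79.9 and 267 against 125 CPM (log2 fold change 1.29 ± 0.17 (SE), adjusted p = 1.85e-04) and Cxcr6 at 194 against 87.6 and 222 against 69.8 CPM (log2 fold change 1.42 ± 0.19 (SE), adjusted p = 1.79e-04). All 4 kept their calls with DESeq2 and without class II-rich barcodes, where Cxcr6 reached 2.85. Of 21 Th1 genes tested 9 were higher and 1 lower (Il12rb2), and of 15 cytokines 7 were higher and none lower. In the 2 libraries in turn, Ifng had 106 and 82.7 CPM with Cxcr5 alone, 137 and 136 CPM with neither and 275 and 260.5 CPM with Il21 alone. For Ccl5 both kinds of member lay below the 1447 and 1229 CPM of the other cells.

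Some helper and inhibitory genes also separated the 2 kinds. Of 23 helper-program genes 6 were higher and 1 lower in Il21-only cells (median 0.27), and without class II-rich barcodes 3 and 0 of 23 (median 0.05). Of 13 inhibitory receptors 4 were higher and none lower, and without class II-rich barcodes 3 of 12. Tnfsf8 was at 742 against 249.9 CPM among WT NOD cells and 694 against 413 CPM in the library labelled NOD.Cxcl16-/- (log2 fold change 1.11 ± 0.15 (SE), adjusted p = 2.41e-04), although DESeq2 did not call it (adjusted p = 0.274). Cd200 was at 607 against 219 and 528 against 276 CPM (log2 fold change 1.18 ± 0.14 (SE), adjusted p = 6.73e-05), Ctla4 at 1196 against 693 and 1482 against 781 CPM (log2 fold change 0.86 ± 0.09 (SE), adjusted p = 2.19e-05) and Tnfrsf4 at 821 against 528 and 945 against 395 CPM (log2 fold change 0.95 ± 0.12 (SE), adjusted p = 1.79e-04). Prdm1, which encodes Blimp-1, the antagonist of Bcl6, was at 67.8 against 25.8 and 52.1 against 18.4 CPM (log2 1.45, adjusted p = 0.0135), and Il10 at 67.2 against 30.9 and 65.1 against 16.5 CPM (log2 1.53, adjusted p = 0.00905). Maf was higher (log2 0.64, adjusted p = 0.00346) but not without class II-rich barcodes (adjusted p = 0.152). Bcl6, Tox2 and Tox were not called, at 50.9 against 61.8 and 70.3 against 82.7 CPM, 91.3 against 87.6 and 104 against 90.0 CPM and 656 against 544 and 787 against 654 CPM; with so few Cxcr5-only cells this does not show equal levels. Of 13 naive and exit genes 5 were lower in Il21-only cells, among them S1pr1, at 68.5 against 170.0 and 91.2 against 228 CPM (log2 fold change -1.32 ± 0.17 (SE), adjusted p = 1.47e-04), and Klf2, at 175 against 312 and 141 against 347 CPM (log2 fold change -1.07 ± 0.15 (SE), adjusted p = 3.45e-04). Set against the other CD4 cells, the 73 and 91 Cxcr5-positive members taken alone gave 436 and 346 called genes (4.28% and 3.39%), with higher Tox2 (1.41, adjusted p = 1.95e-14), Tox (0.73, adjusted p = 8.41e-14) and Tnfsf8 (0.76, adjusted p = 3.85e-13) and with lower Ifng (-0.49, adjusted p = 0.0153), in log2 values. Bcl6 was also called higher in these cells, which include the 20 and 26 with both genes. With Cxcr5 alone, Tnfsf8 was at 249.9 and 413 CPM against 270.0 and 341 CPM in the other CD4 cells, apart by no more than counting error in the WT NOD library and higher in the second. Tox2 was at 87.6 and 90.0 CPM against 39.7 and 53.7 CPM and Tox at 544 and 654 CPM against 405 and 511 CPM, above them in both. Maf, Icos and Pdcd1 were not called for the Cxcr5-positive members. The Il21-positive members taken alone, 255 and 192 cells with 498 and 503 called genes (4.87% and 4.92%), had all 3 higher, with Maf at 0.73 (adjusted p = 2.34e-06).

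The few members with both genes, 20 and 26 cells, had the highest levels of several helper genes; these values carry no test. Tnfsf8 had 1025 CPM (865 to 1205) among WT NOD cells and 1137 CPM (1001 to 1287) for the library labelled NOD.Cxcl16-/-, above both single-gene kinds without overlap of Poisson intervals. Tox was at 1622 CPM (1419 to 1845) and 1001 CPM (873 to 1142), and Tox2 at 344 CPM (254 to 455) and 154 CPM (107 to 215), the latter overlapping the single-gene kinds in the second library. Bcl6 was at 204 CPM (136 to 292) in the first library but 58.9 CPM (31.4 to 101) in the second, so the libraries did not repeat each other. Pdcd1 was at 218 CPM (148 to 309) and 159 CPM (110.4 to 221). Ifng was low in the first, at 42.1 CPM (15.5 to 91.7), and intermediate in the second, at 181 CPM (129 to 247). These cells were also the deepest, with medians of 6942.5 and 8411.5 UMIs, and depth raises the chance of finding both genes.

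**Figure D4:**
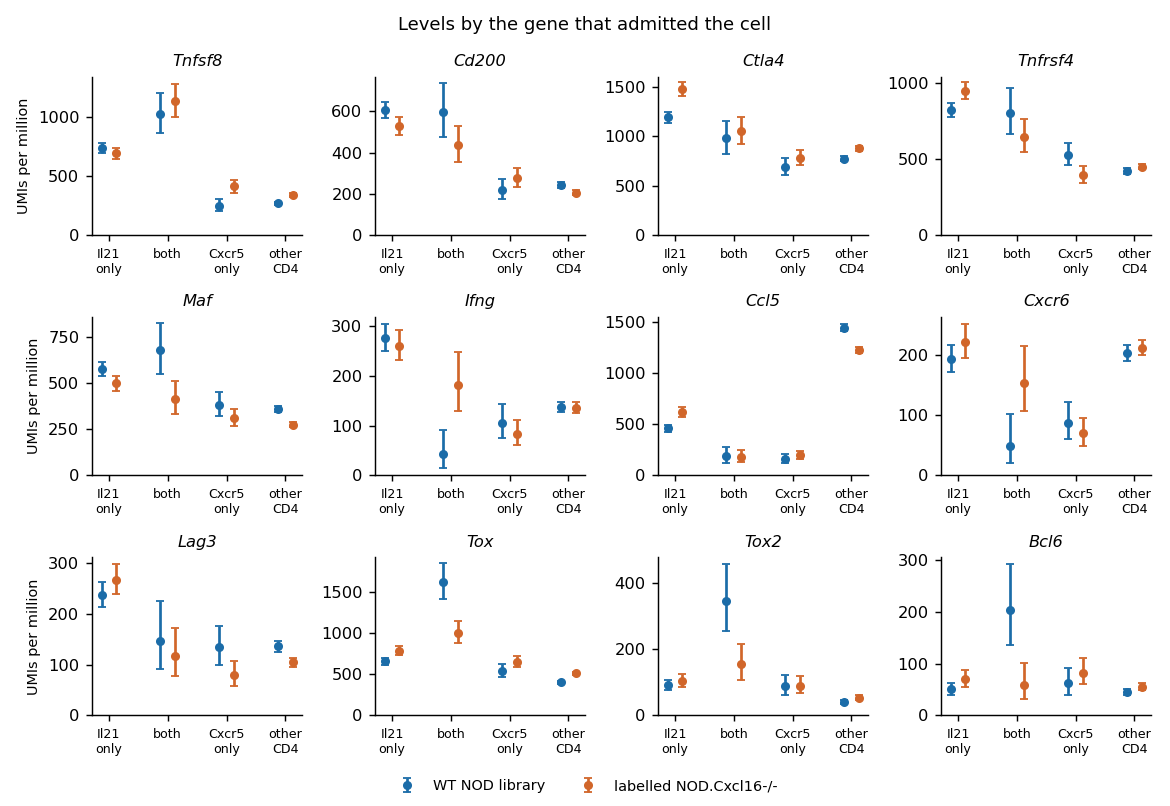
CPM of 12 genes in members with Il21 alone, with both genes, with Cxcr5 alone and in the other CD4 cells, by library; bars are 95% exact Poisson intervals of the summed UMIs. Ifng, Lag3 and Ctla4 are highest in cells with Il21 alone, Tnfsf8 and Tox in cells with both, and Ccl5 in the other CD4 cells.

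The number of Il21 UMIs in a cell, on which the rule set its threshold, gave a further description. Cells just inside it, with 1 Il21 UMI (127 and 91 cells), had Tnfsf8 at 654 and 686 CPM, against 270.0 and 341 CPM just outside, in the cells with neither gene. With 2 Il21 UMIs (52 and 42 cells) Tnfsf8 was at 1006 and 752 CPM, and with 3 or more (76 and 59 cells) at 781 and 884 CPM, so the level was highest with 2 in the WT NOD library. Ifng was at 228 and 219 CPM with 1 UMI, 255 and 179.9 CPM with 2 and 297 and 334 CPM with 3 or more. Il10 was at 41.3 and 22.5 CPM with 1 UMI, 68.2 and 78.5 CPM with 2 and 90.9 and 87.5 CPM with 3 or more, and Lag3 in the same order at 193 and 179, 214 and 268, and 293 and 316 CPM. Ccl5 went the other way in both libraries, from 563 and 707 over 424 and 569 to 258 and 316 CPM, while Bcl6 was at 66.3 and 74.1 CPM, 86.0 and 65.4 CPM and 46.4 and 62.8 CPM. Per cell, Tbx21 or Ifng was found in 61.3% and 58.4% of Il21-only members, 43.4% and 30.8% of Cxcr5-only members and 31.8% and 35.0% of other CD4 cells. After thinning these shares were 39.9% and 40.2%, 25% and 18.5%, and 22.2% and 22.4%. Of gated CD4 cells with Nrn1 or Tnfsf8, 35.7% and 33.5% were members.

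Between the libraries, members differed little in the helper genes; there is no test here, since each genotype has 1 library. Of 3329 genes with at least 50 CPM in members of either library, 10 (0.3%) were more than 2-fold higher and 16 (0.481%) more than 2-fold lower in the library labelled NOD.Cxcl16-/-. Among the other CD4 cells 16 (0.481%) of the same genes passed 2-fold, and 8 of the 26 did so the same way. Tnfsf8 was at 669 and 665 CPM in the 2 libraries in turn, a log2 ratio of -0.01 (-0.12 to 0.10) with a 95% exact interval of counting error in brackets. Tox2 had 108 and 106 CPM and a ratio of -0.03 (-0.31 to 0.25), and Ifng 227 and 201 CPM and -0.18 (-0.38 to 0.02). Icos was higher in the second library at 0.32 (0.20 to 0.43) and Maf lower at -0.33 (-0.46 to -0.20), and the other CD4 cells showed the same at 0.36 and -0.38. Ccl4 came nearest to the 2-fold mark among the effector genes, with 393 and 200.3 CPM and -0.97 (-1.15 to -0.80). Cxcr6 was at 164 and 171 CPM (log2 0.06, -0.16 to 0.29). The median log2 ratio over all 3329 genes was 0.04.

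Most genes past 2-fold were not helper genes. Ins1 and Ins2, the insulin genes of beta cells, were at 28.6 and 94.4 CPM and 46.0 and 170.1 CPM, and were higher in the other CD4 cells of that library too, at log2 1.32 and 1.49; T cells do not make insulin. Spp1 was at 103 and 270.3 CPM, with log2 1.40 (1.16 to 1.63) in members and 2.02 in the other CD4 cells. Cxcl13 was at 23.7 and 78.3 CPM from 10 and 9 cells, Sostdc1 at 30.5 and 86.1 CPM, Creb3l2 at 29.6 and 78.8 CPM and Stfa3, of a family of near-identical cystatins, at 25.2 and 91.8 CPM. Rpl10-ps3 and Gm10260, ribosomal pseudogene loci whose counts cannot be told apart from their parent genes, went up and down. Ly6a, which encodes the activation marker Sca-1, was lower at 373 and 145 CPM (log2 -1.36, -1.56 to -1.16), as was interferon-induced Isg15 at 96.9 and 42.3 CPM (log2 -1.20, -1.59 to -0.82). Both were also lower in the other CD4 cells of that library, at log2 -0.83 and -0.55. Ccl1, at 96.9 and 5.74 CPM, had 194 of 200 WT NOD UMIs in 1 cell, and Sst 171 of 188. Fscn1, Sst and H2-M2 lost their direction or their UMIs without class II-rich barcodes, and without them 8 genes were lower by more than 2-fold.

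**Figure D5:**
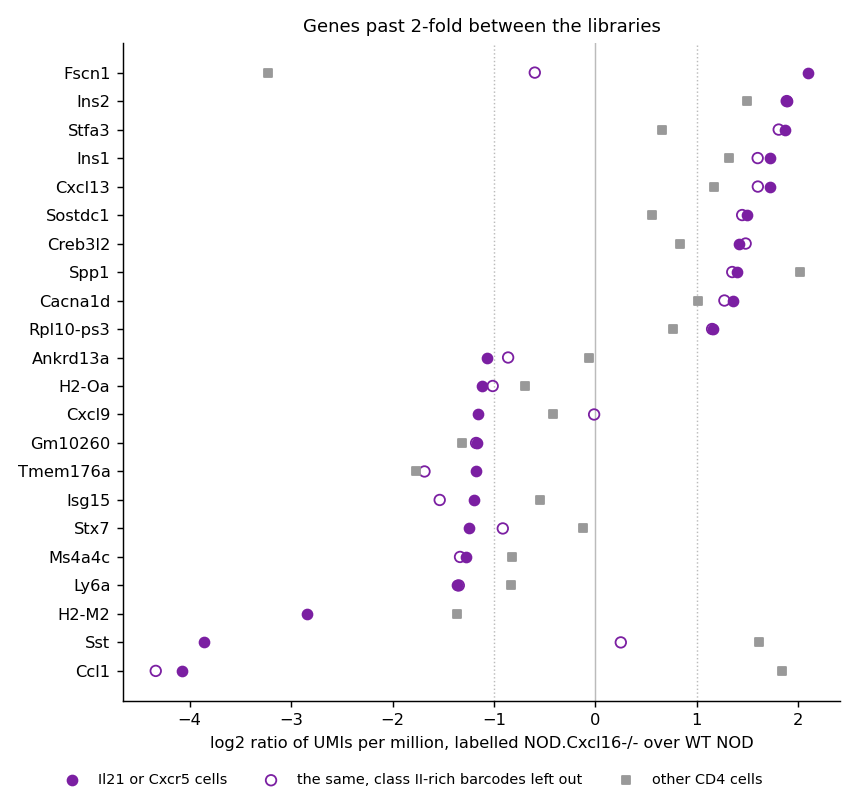
Log2 ratio of CPM, library labelled NOD.Cxcl16-/- over WT NOD, for the genes past 2-fold in members (all 10 higher and the 12 largest of 16 lower), in all members (filled circles), in members without class II-rich barcodes (open circles) and in the other CD4 cells (squares); dotted lines mark 2-fold. Ins1, Ins2 and Spp1 lie right of 0 in all 3, and Fscn1, Sst and Ccl1 differ in sign between them.

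Partners of the genes that members carry were read in each gate of the same libraries, as values without a test. Il21r was at 181 and 207 CPM in members, 189 and 197 CPM in other CD4 cells, 189 and 217 CPM in Foxp3-positive CD4 cells, 147 and 175 CPM in CD8 cells and 102 and 109 CPM in B cells, so members were near the other CD4 classes and above B cells. Cd40, the receptor of the CD40 ligand, was at 76.5 and 78.4 CPM in B cells and 192 and 138 CPM in myeloid cells. Icosl, the ligand of ICOS, was at 25.4 and 21.7 CPM in B cells and 3.88 and 2.09 CPM in members. Tnfrsf8, which encodes CD30, the receptor for Tnfsf8, was at 36.1 and 21.2 CPM in Foxp3-positive CD4 cells, 9.45 and 11.4 CPM in CD8 cells and 5.81 and 3.65 CPM in members. Among the ligands of PD-1, Cd274 was at 374 and 332 CPM in myeloid cells and 129.9 and 148 CPM in members. Pdcd1lg2 was at 75.6 and 68.9 CPM in members, 43.0 and 42.0 CPM in other CD4 cells and 27.5 and 31.4 CPM in B cells. It was not particular to members, at 62.2 and 67.9 CPM in Foxp3-positive and 49.3 and 64.6 CPM in cycling Foxp3-negative CD4 cells.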

How the data were processed

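Single-cell RNA was sequenced from 1 library per genotype, and the deposited files hold raw UMI counts of 32285 genes per barcode, which the authors made with Cell Ranger 7.0.1 and mm10, per the submitters' processing notes. All further steps were computed here. The cell filter and the gate are given at the start of the report, and the members and gene lists were chosen with earlier results of these data known. Counts were summed per library and class and tested with edgeR 4.0.16 (R 4.3.3; quasi-likelihood test, library as a term, Benjamini-Hochberg adjustment over the genes tested, threshold 0.05). Gate genes and mitochondrial genes were left out of the adjustment. DESeq2 1.42.0 was an alternative, and the fits were tested on simulated data. CPM is a gene's UMIs scaled to a common total of the summed cells. Intervals are exact (Clopper-Pearson or Poisson, 95%) and cover counting error only. Shares were also computed with each cell thinned to 2000 UMIs, which leaves out shallower cells. No doublet caller was run, and leaving out class II-rich barcodes, also within antigen-experienced cells, was chosen after seeing the data.

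Named genes were list members, the 12 largest log2 fold changes in each direction among called genes of the same sign in both libraries with at least 20 CPM, and the 12 largest ratios between libraries past 2-fold with at least 50 CPM. Some genes are not reported here. Other tests compared fixed gates, and differences between libraries were given as values without a test. Promoter sequences are RefSeq's (GRCm38.p6). Gene positions are from GENCODE M21, which holds 32158 of the 32285 gene IDs. Python 3.11.15 with numpy 2.4.6, scipy 1.17.1, pandas 2.3.3 and matplotlib 3.10.9 was used.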

Additional observations from a re-analysis of the deposited data

Results flagged for a closer look

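Il21 was detected outside the gate. In cycling Foxp3-negative CD4 cells, which the rule keeps out, 9.38% of WT NOD cells and 8% of cells of the library labelled NOD.Cxcl16-/- had an Il21 UMI at 2000 UMIs a cell. In CD8 cells the shares were 0.944% and 0.699%. B cells, which served as the control for free RNA, had 0% and 0.0559%.

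For 5 of the genes named or listed, members lay on opposite sides of the other CD4 cells in the 2 libraries, beyond counting error in each; the difference between libraries was not tested. The log2 ratio of Sst, the somatostatin gene, was 1.65 among WT NOD cells and -3.82 in the library labelled NOD.Cxcl16-/-, with 171 of its 188 UMIs in WT NOD members in 1 cell. For Fscn1, an actin-bundling gene of mature dendritic cells, it was -1.29 and 4.03, with 61 of 111 UMIs in members of the second library in 1 cell. For the tubulin gene Tubb5 it was -0.16 and 0.20. For the chemokine gene Ccl1 it was 3.30 and -2.61, with 194 of 200 UMIs in WT NOD members in 1 cell. In the second library 154 of the 169 Ccl1 UMIs of the other CD4 cells also lay in 1 cell. For the class I-like gene H2-M2 it was 0.55 and -0.93, with 69 of 131 UMIs in WT NOD members in 1 cell. In the second library 1 cell held 13 of 17 H2-M2 UMIs of members, and 1 cell 45 of 81 of the other CD4 cells.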

How the results depend on the processing

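Against 737 higher and 682 lower genes (1419), members gave 154 and 151 (305) with DESeq2, 177 and 174 (351) with the gate on thinned cells, 163 and 176 (339) without library as a term, 162 and 162 (324) within antigen-experienced cells, 114 and 138 (252) there without class II-rich barcodes, and 436 and 346 (782) for Cxcr5-positive members alone. Against 79 and 115 (194) for Il21-only over Cxcr5-only cells, DESeq2 gave 14 and 16 (30), the fit without library 27 and 27 (54), leaving out class II-rich barcodes 43 and 21 (64), a limit of 10 class II UMIs 71 lower, and no filter on low counts 134 higher. Reversed log2 values were Ctnnd2 -0.15 (at least 2 gate UMIs), Cxcl2 -0.78 and -0.94 (at least 10 or 20 class II UMIs out) and Il1b 1.04 (highest 5% of UMIs out); the cause was not tested. Member shares were 13.6% and 9.44% thinned, 19.9% and 15.9% with Il21 alone, 5.69% and 7.55% with Cxcr5 alone, a difference of 1.86 points, and 24.7% in the library labelled NOD.Cxcl16-/- with cycling cells kept. Thinned detection was 11.9% and 7.47% for Il21 and 2.15% and 2.66% for Cxcr5. Between libraries, 8 genes were lower past 2-fold both without class II-rich barcodes and with the mean over cells, and thinned cells gave 27 higher and 34 lower (61). With 1 CPM added, Fscn1 went from 2.02 to -0.60 (highest 5% out) and -0.36, Sst from -3.66 to 0.22 and H2-M2 from -2.71 to 0, the last 3 without class II-rich barcodes. Of 320 values of the 22 named member genes under alternatives, 300 kept direction and side of the threshold, 17 lost the call and 3 reversed. The 5 to which DESeq2 gave no adjusted p are not counted. Genes that did not pass the filter on low counts under an alternative are not counted there either. The contrasts among cells are paired within each library by the library term; the genotypes, with 1 library each, could not be paired. Leaving out either library leaves no residual degree of freedom; 1417 of 1419 called genes had the same sign in each library. Low UMI counts per cell limit every detection share.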

Other observations

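Pdcd1lg2, which encodes the PD-1 ligand PD-L2, lay outside the gene lists and was singled out after its values were seen. It was at 75.6 against 43.0 CPM in WT NOD members and other CD4 cells, and at 68.9 against 42.0 CPM in the library labelled NOD.Cxcl16-/-. By edgeR's quasi-likelihood test its log2 fold change was 0.73 ± 0.13 (SE), with an adjusted p of 0.000239. The gene was not particular to members. In the 2 libraries in turn it was at 62.2 and 67.9 CPM in Foxp3-positive CD4 cells and 49.3 and 64.6 CPM in cycling Foxp3-negative CD4 cells.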
